A study of Mus musculus with 4 samples.

Results

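The clustered protocadherin genes encode cell surface cadherins that lie side by side in 3 tandem arrays, the alpha, beta and gamma clusters. They were chosen by symbol alone, as every gene of the count table named Pcdha, Pcdhac, Pcdhb, Pcdhga, Pcdhgb or Pcdhgc with a number, which gave 56 of 26433 genes. The alpha cluster held 13 of them, the beta cluster 22 and the gamma cluster 21. Pcdha10 and Pcdhga10 were not analysed here. Bulk RNA sequencing of E15 cerebral cortex, described in the study's methods as telencephalic tissue, compared 2 libraries of SERPINA3 conditional knock-in mice, named cKI f/+ in the study and cKI here, with 2 libraries of wild type (WT) littermates. All mice were labelled as C57BL/6, although founders of the knock-in line had been bred with B6D2F2 mice. The cKI mice carried human SERPINA3 with a 3×flag tag in the Rosa26 locus, behind a CAG promoter and a loxP-flanked STOP cassette that Nestin-Cre removes. The transgene was therefore switched on in Nestin-positive progenitors and all their progeny, so it was not limited to the cortex or to a progenitor class. The WT mice are wild type by label, and it is not stated whether they carried Cre or the silent floxed allele. The transgene itself was not analysed here. Only the genotype of each library could be assigned, and the libraries are called KI2, KI3, WT1 and WT3 after the columns of the count table. Nothing says that they came from separate litters, so the p-values measure only the spread between these libraries.

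In neurons, each alternate alpha and gamma protocadherin begins with a variable first exon that has its own promoter and is spliced to constant exons shared by the whole cluster, whereas each beta protocadherin is a self-contained gene. Promoter choice is largely random for the alternate members of a given neuron and depends on DNA methylation and on looping by CTCF and cohesin, while the C-type members at the 3′ ends of the alpha and gamma clusters are expressed more uniformly. The proteins form multimers on a cell and bind homophilically between cells, and their combination serves in self-recognition of neurites, dendrite arborization and neuron survival. In bulk cortex, therefore, a level is an average over many cells with different choices. Fewer cells that use a gene and less RNA of it per cell cannot be told apart.

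The libraries held 17423512 to 18119444 counts assigned to genes, so 3 counts corresponded to 0.166 to 0.172 CPM, the count scaled to a library of 1000000 counts. Markers of the labelled tissue were present. Tbr1, a transcription factor gene of early cortical neurons, had 8248 and 8004 counts in cKI and 9823 and 8334 in WT, and Emx1, of the dorsal telencephalon, had 3054 and 3860 against 2908 and 2988. The libraries did not match in sex. Xist had 13223 and 11882 counts in cKI and 5 and 5 in WT, and Kdm5d, on the Y chromosome, had 0 and 0 counts against 951 and 918. Genotype and sex cannot be told apart in any difference below. Markers of other tissues also differed. The 5 meningeal markers summed to 19.96 and 17.3 CPM in cKI and to 6.98 and 9.13 CPM in WT, and all 4 that were tested had an unadjusted p under 0.05. The 5 choroid plexus markers summed to 8.96 and 67.2 CPM in cKI and to 1.59 and 4.36 CPM in WT, with Ttr at 0 in WT1. In edgeR's quasi-likelihood test all 4 that were tested were estimated higher in cKI, 2 of them with an unadjusted p under 0.05. The 5 blood markers summed to 430.0 and 283.5 CPM in cKI and to 405.9 and 454.7 CPM in WT. By the same test all 5 were estimated lower in cKI, 3 of them with an unadjusted p under 0.05. Of 7 ventral telencephalon markers 2 had an unadjusted p under 0.05. Dlx2 had 437 and 609 counts in cKI and 679 and 862 in WT, and Nkx2-1 had 19 and 17 against 6 and 3, while the 7 summed to 238.4 and 248.9 CPM in cKI and to 243.9 and 305.8 CPM in WT. Over all tested genes, 4.60% had an unadjusted p under 0.05 in this test. No marker of meninges, choroid plexus, blood or ventral telencephalon had an adjusted p under 0.05. The part of sex or of these tissues in the protocadherin values was not tested.

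All 56 genes lay on the plus strand of mouse chromosome 18 (GRCm38), within 911.69 kb from 36930184 to 37841873. The alpha cluster ran from 36930184 to 37187661, the beta cluster from 37264938 to 37524479 and the gamma cluster from 37661793 to 37841873. All 56 carried the homophilic cell adhesion annotation in the table, which 175 genes carried in all, and all 56 had a cadherin domain annotation. The alpha cluster comprised 11 alternate genes and the C-type genes Pcdhac1 and Pcdhac2. The gamma cluster comprised 11 genes of the A subfamily, 7 of the B subfamily and the 3 C-type genes Pcdhgc3, Pcdhgc4 and Pcdhgc5. Pcdhgb8, of the B subfamily, is annotated as a polymorphic pseudogene, so its reads need not stand for a protein.

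The shared architecture set what could be counted for each gene. Own exon bases, meaning exon bases in GENCODE M21 that no other annotated gene covers, made up a median of 46.4% of the exon bases of an alpha gene, 54.8% of a gamma gene and 100% of a beta gene. In 19 genes every exon base was its own. A read in the constant exons cannot be given to a single alpha or gamma gene, so the counts of these genes rest on their own exons. Pcdha4 had only 404 own bases, 7.004% of its exon bases, and 0, 0, 0 and 2 reads in KI2, KI3, WT1 and WT3, so this count is not a measure of its use. Similar sequence adds a further limit. The share of 50-base words of a gene's own exons that occur in annotated transcripts of another gene was above 10% in 13 genes and 0 in 10, among them the C-type genes. It was highest in Pcdha7, at 25.5%, and was 16.8% in Pcdhgb1, 16.4% in Pcdhgb2 and 11.9% in Pcdhgb6. The median was 14.7% in alpha genes, 3.33% in beta genes and 1.03% in gamma genes. Reads of such stretches can be lost or moved between paralogs. The values of genes with a high share are therefore less certain, above all in the alpha cluster.

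**Figure D1:**
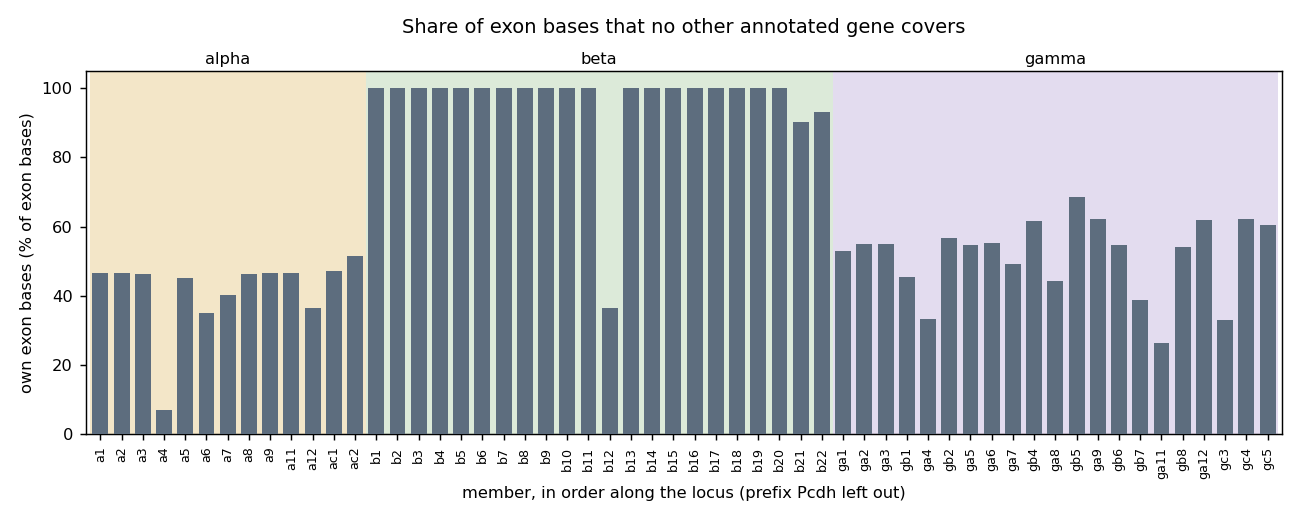
Share of the exon bases of each gene that no other annotated gene covers (% of exon bases), in order along the locus, with the clusters shaded. The beta genes stand at or near 100% with the exception of Pcdhb12, at 36.5%, and the alpha and gamma genes lie below 70%.

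The gamma cluster carried most protocadherin reads in every library. Its summed level was 175.6 and 154.8 CPM in KI2 and KI3, and 169.6 and 158.6 CPM in WT1 and WT3. The beta cluster had 72.3 and 62.4 CPM in cKI and 59.9 and 57.2 CPM in WT. The alpha cluster had 19.6 and 15.7 CPM in cKI and 16.1 and 15.8 CPM in WT. The order gamma, beta, alpha was thus the same in all 4 libraries. Gamma genes made up 65.6% to 69.1% of the protocadherin reads of a library, beta genes 24.4% to 27.0% and alpha genes 6.54% to 7.34%. These shares cover only reads that were given to a gene. By the medians above, alpha genes had the lowest share of own bases and the highest share of words found in other genes. All 56 genes together took 0.0232% to 0.0267% of the counts of a library. Summed over the libraries, a gamma gene had a median of 433 reads and at least 143. A beta gene had a median of 148.5 reads, from 1 to 570, and an alpha gene a median of 81 reads, from 2 to 267, so differences in alpha and beta genes were measured with less precision.

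Per length the same order was seen, with a narrower gap between the alpha and beta clusters. Dividing CPM by kb of own exon, the median over the genes of a cluster was 2.42 in gamma, 0.540 in beta and 0.463 in alpha, taken over the mean of the 4 libraries. In single libraries this median ranged from 2.15 to 2.39 for gamma, from 0.430 to 0.626 for beta and from 0.398 to 0.580 for alpha. Beta lay above alpha within each library, from 0.430 against 0.416 in WT3 to 0.546 against 0.398 in KI3, although the ranges over the libraries overlapped. This difference was not tested, and own exon length does not correct for sequence shared with paralogs. Gamma lay above both in each library. When all exon bases were used as length, the medians were 1.26, 0.492 and 0.214. Among all tested genes the median was 5.34 CPM per kb, and Pcdhgc3 was the 1 protocadherin above it. The median protocadherin stood at the percentile 17.2 of tested genes, so most of these genes were measured at a low level in the tissue as a whole.

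**Figure D2:**
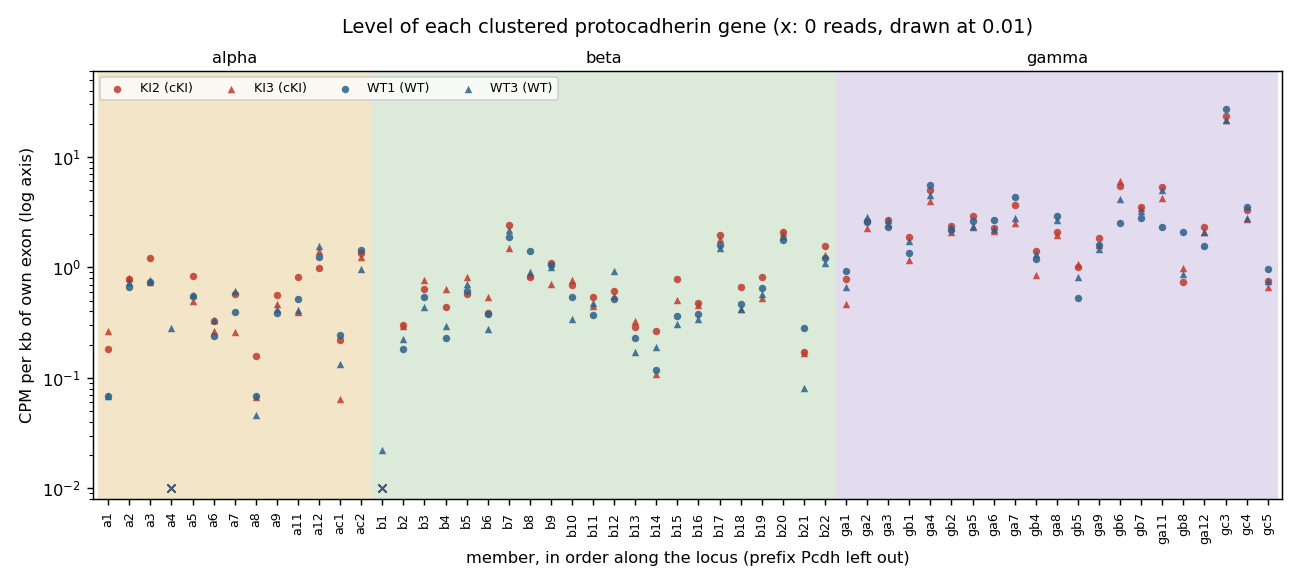
CPM per kb of own exon (log axis) of each gene in each of the 4 libraries, in order along the locus. Red marks cKI, blue marks WT, and crosses at the lower edge stand for 0 reads. Pcdhgc3 lies above all other genes at a mean of 23.6 CPM per kb (12.7 when genes on the other strand are ignored), and Pcdhb1 and Pcdha8 are among the lowest.

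Within the gamma cluster the C-type gene Pcdhgc3, which in mouse is required for normal dendrite branching of cortical neurons, stood apart. It had 764 and 719 reads in KI2 and KI3, and 876 and 686 in WT1 and WT3. Its mean level was 41.4 ± 2.40 CPM in cKI (SD, n = 2) and 44.6 ± 7.32 CPM in WT (SD, n = 2). WT1 was the highest library and WT3 the lowest, so the cKI values lay between the WT values. The log2 fold change of cKI over WT was -0.10 with a standard error of 0.12, and the adjusted p of edgeR's quasi-likelihood test was 0.990. Pcdhgc3 alone accounted for 24.5% of gamma reads in KI2 (95% Wilson interval 23.1% to 26.1%), 25.6% in KI3 (24.1% to 27.3%), 29.3% in WT1 (27.7% to 31.0%) and 24.8% in WT3 (23.2% to 26.5%). These intervals cover counting error only, and that of WT1 does not meet those of the other 3 libraries. An exon of Pcdhgc3 is overlapped by the antisense gene BC037039, which had 36, 49, 38 and 30 reads in KI2, KI3, WT1 and WT3, and the overlapped bases are not among the 1821 own bases of Pcdhgc3. The strand setting of the counting is not given in the sources used here, so reads of the pair cannot be told apart in the overlap. Over the 3380 bases that no other gene on the same strand covers, the level of Pcdhgc3 was 12.7 CPM per kb in place of 23.6, and over all its exon bases it was 7.81, still the highest of the 56 genes on each scale.

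The other C-type genes were lower. Pcdhgc4, whose product is needed for neuron survival and which does not reach the surface alone, had 203 and 172 reads in cKI and 215 and 171 in WT, with a log2 fold change of -0.07 ± 0.18 (SE). Pcdhgc5 had 61 and 55 reads in cKI and 79 and 60 in WT. Its groups did not overlap when scaled to library size, and its log2 fold change of -0.29 ± 0.24 (SE) had an adjusted p of 0.975 (edgeR's quasi-likelihood test). The separation was narrow, at 3.439 CPM in KI2 against 3.444 CPM in WT3, and without WT1 the log2 fold change was -0.084. In the alpha cluster, Pcdhac2, which is known for its role in spacing serotonergic axons, had 72 and 68 reads in cKI and 76 and 51 in WT, and the groups overlapped. Its log2 fold change was 0.11 ± 0.25 (SE). Pcdhac1 had 10 and 3 reads in cKI and 11 and 6 in WT, and was too low to be tested. The serotonin neuron genes Tph2 and Slc6a4 summed to 0.442 to 1.07 CPM and neither passed the filter on low counts.

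Among the alternate alpha genes, Pcdha12 and Pcdha3 had the highest levels per kb. Pcdha12 had 34 and 50 reads in cKI and 43 and 53 in WT, and its level averaged over the 4 libraries was 1.31 CPM per kb. Pcdha3 had 53 and 33 reads in cKI and 32 and 33 in WT, at 0.862 CPM per kb, so KI2 alone was high. The log2 fold changes were -0.22 ± 0.29 (SE) for Pcdha12 and 0.38 ± 0.33 (SE) for Pcdha3, and both pairs of groups overlapped. Pcdha1, Pcdha4 and Pcdha8 did not pass the filter on low counts. Pcdha1 had 8 and 12 reads in cKI and 3 and 3 in WT, and Pcdha8 had 7 and 3 against 3 and 2.

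In the beta cluster the highest levels per kb were those of Pcdhb7, Pcdhb20 and Pcdhb17, at 1.998, 1.95 and 1.72 CPM per kb. Pcdhb7 had 150 and 95 reads in cKI and 117 and 133 in WT, so the cKI libraries were both the highest and the lowest. Pcdhb20 had 132 and 131 reads in cKI and 110 and 120 in WT, and its groups did not overlap. Pcdhb17 had 163 and 152 reads in cKI and 132 and 123 in WT, and its groups did not overlap either. The log2 fold changes were -0.05 ± 0.24 (SE), 0.17 ± 0.18 (SE) and 0.28 ± 0.17 (SE), and that of Pcdhb20 was 0.096 without WT1. Pcdhb1, at the 5′ end of the cluster, had 0, 0 and 0 reads in KI2, KI3 and WT1 and 1 in WT3, a count at which no level can be read.

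In the gamma cluster Pcdhga4 and Pcdhgb6 followed Pcdhgc3 in level per kb of own exon, at 4.78 and 4.57 CPM per kb. Over all exon bases they stood at 1.59 and 2.50 CPM per kb. On that scale Pcdhgc4, at 1.92, and Pcdhga7, at 1.63, lay above Pcdhga4. Pcdhga4, of the A subfamily, had 141 and 114 reads in cKI and 154 and 123 in WT. The groups overlapped, and the log2 fold change was -0.14 ± 0.20 (SE). By subfamily, the 11 A genes summed to 73.8 and 61.5 CPM in cKI and to 70.0 and 67.7 CPM in WT. The 3 C-type genes summed to 58.0 and 52.2 CPM in cKI and to 66.4 and 52.6 CPM in WT. The 7 B genes summed to 43.8 and 41.1 CPM in cKI and to 33.2 and 38.3 CPM in WT, and only in this subfamily of the gamma cluster did the sums of the groups not overlap. This separation rested on Pcdhgb6. The other 6 B genes summed to 29.7 and 25.6 CPM in cKI and to 26.7 and 27.6 CPM in WT, where the groups overlapped.

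The comparison of cKI with WT asks which genes respond in embryonic cortex to human SERPINA3, and for the clustered protocadherins it gave no call. Of the 56 genes, 51 passed the filter on low counts and were tested, and 0 had an adjusted p under 0.05 in edgeR's quasi-likelihood test, against 0.120% of all 15786 genes tested. The lowest adjusted p was 0.773 and the highest 0.998. An unadjusted p under 0.05 was found in 5 of the 51 genes with edgeR, where 4.60% of all tested genes had one (2.26% with cKI higher and 2.34% with cKI lower). It was found in 1 with DESeq2, which also called 0. With standard errors of 0.12 to 0.58 on the log2 scale and a median of 0.28, small differences were not detectable at this depth. The spread rested on 2 libraries a group, and with so few libraries an exact permutation test of any gene, two-sided, has a smallest possible p of 0.333.

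At cluster level, the summed reads of the alpha cluster averaged 17.6 ± 2.79 CPM in cKI and 15.9 ± 0.200 CPM in WT (SD, n = 2 each), and KI3 lay below both WT libraries. The beta cluster averaged 67.3 ± 7.01 CPM in cKI and 58.6 ± 1.89 CPM in WT, which is 14.97% above WT or 0.20 on the log2 scale. Both cKI libraries lay above both WT libraries for beta, while the cKI libraries differed from each other by 0.21 on the log2 scale. The gamma cluster averaged 165.2 ± 14.7 CPM in cKI and 164.1 ± 7.77 CPM in WT, and the groups overlapped. The difference in beta was thus no larger than the spread between the cKI libraries. No p is given for these sums, since the genes were chosen as a group.

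**Figure D3:**
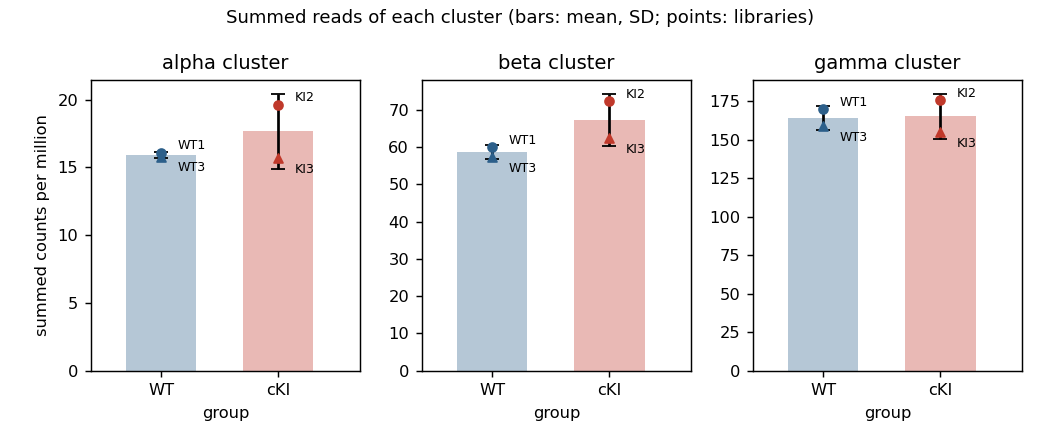
Summed CPM of the alpha, beta and gamma clusters by group (bars, mean; error bars, SD; points, the 2 libraries of each group), with a separate axis from 0 for each cluster. The beta cluster is the panel in which both cKI libraries, at 72.3 and 62.4 CPM, lie above both WT libraries, at 59.9 and 57.2 CPM.

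Gene by gene the clusters were spread around 0 to different degrees. In the beta cluster 16 of 21 tested genes had a log2 fold change above 0, with a median of 0.28, and in the alpha cluster 7 of 9, with a median of 0.19. In the gamma cluster 9 of 21 were above 0, with a median of -0.07. Of all 51 genes, 32 or 62.7% were above 0, with a median of 0.14, where 51.2% of all tested genes were above 0 with a median of 0.00. These counts leaned on KI2. Without it, 13 of 21 beta genes, 5 of 11 alpha genes and 6 of 21 gamma genes were above 0, and the medians were 0.14, -0.04 and -0.21. Without KI3, by contrast, 15 of 21 gamma genes were above 0, with a median of 0.08, so the direction of the gamma cluster depended on which library was left out. The groups did not overlap in 20 of the 51 genes, or 39.2%, against 33.9% of all tested genes. Of these, cKI was higher in 17 and lower in 3. That is 33.3% and 5.88% of the 51 genes, against 16.0% and 18.0% of all tested genes. Of the 17, 11 were beta genes, or 52.4% of the beta genes tested. These 11 were Pcdhb2, Pcdhb3, Pcdhb4, Pcdhb6, Pcdhb10, Pcdhb13, Pcdhb15, Pcdhb16, Pcdhb17, Pcdhb20 and Pcdhb22, which are spread along the whole beta cluster. The other 6 were Pcdha2 and Pcdha9 in the alpha cluster and Pcdhgb5, Pcdhgb6, Pcdhgb7 and Pcdhga12 in the gamma cluster. The log2 fold changes ranged from -0.27 to 0.38 in alpha, from -0.46 to 1.05 in beta and from -0.77 to 0.79 in gamma.

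**Figure D4:**
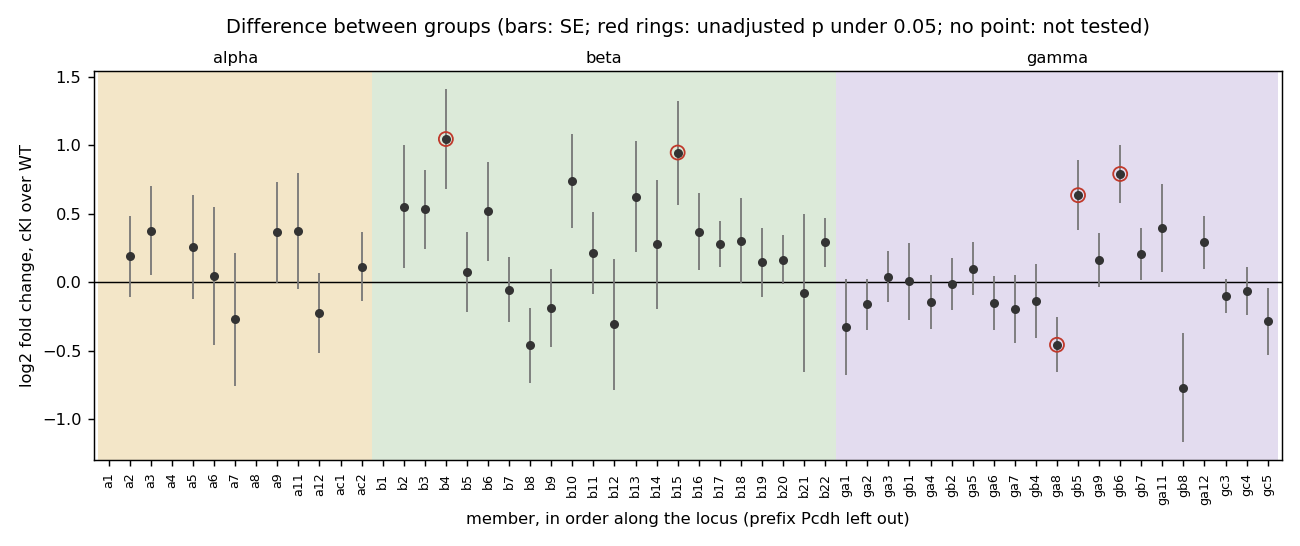
Log2 fold change of cKI over WT for the 51 tested genes in order along the locus (points, with bars of 1 SE). Red rings mark the 5 genes with an unadjusted p under 0.05, of which Pcdhb4, Pcdhb15, Pcdhgb5 and Pcdhgb6 lie above 0 and Pcdhga8 below.

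Pcdhgb6, a gamma B gene, had the lowest p of the 51 tested genes. It had 251 and 281 reads in KI2 and KI3, and 115 and 186 in WT1 and WT3. Both cKI libraries lay above both WT libraries, and WT1 lay far below WT3. Its mean level was 14.8 ± 0.959 CPM in cKI and 8.60 ± 2.93 CPM in WT (SD, n = 2 each), a log2 fold change of 0.79 ± 0.21 (SE) with an unadjusted p of 0.00470 and an adjusted p of 0.773 (edgeR's quasi-likelihood test). The distance between the WT libraries, 0.71 on the log2 scale, was nearly as large as the difference between the groups. Without WT3 the fold change was 1.19 on the log2 scale with an adjusted p of 0.00683, a value past the threshold that assumes WT1, the lone WT library, varies like the other group. Without WT1 it was 0.48 on the log2 scale, with an adjusted p of 0.651. Pcdhgb6 made up 32.3% and 37.8% of the reads of the B subfamily in KI2 and KI3, and 19.7% and 27.9% in WT1 and WT3.

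Pcdhgb5, the neighbouring B gene, had 83 and 90 reads in cKI and 43 and 66 in WT. As for Pcdhgb6, WT1 was the lowest library and the groups did not overlap, with a log2 fold change of 0.64 ± 0.26 (SE) and an unadjusted p of 0.0348. It was 0.35 without WT1 and 0.99 without WT3. Pcdhgb8, the polymorphic pseudogene of the B subfamily further downstream, had 33 and 45 reads in cKI and 93 and 38 in WT. WT1 was thus high and the groups overlapped. The log2 fold change of Pcdhgb8, -0.77 ± 0.40 (SE), was the lowest of the 51. Without WT1 it was 0.00, so it rested on that library. Pcdhga8 had 78 and 74 reads in cKI and 108 and 97 in WT. Both cKI libraries lay below both WT libraries, and the log2 fold change was -0.46 ± 0.20 (SE) with an unadjusted p of 0.0482. The adjusted p of edgeR's quasi-likelihood test was 0.969 for each of Pcdhgb5, Pcdhgb8 and Pcdhga8.

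The largest log2 fold change of the 51 was that of the beta gene Pcdhb4, with 29 and 43 reads in cKI and 15 and 19 in WT. Both cKI libraries lay above both WT libraries, at 2.004 ± 0.522 CPM against 0.971 ± 0.169 CPM (SD, n = 2 each). The log2 fold change was 1.05 ± 0.37 (SE), with an unadjusted p of 0.0186. Pcdhb15 followed, with 39 and 26 reads in cKI and 18 and 15 in WT, and a log2 fold change of 0.95 ± 0.38 (SE) with an unadjusted p of 0.0335. Without KI2 that fold change was 0.59 on the log2 scale. Pcdhb8 was the 1 beta gene in which both cKI libraries lay below both WT libraries. It had 51 and 54 reads in cKI and 87 and 55 in WT, and its log2 fold change was -0.46 ± 0.27 (SE), which moved to -0.10 without WT1. For all 3 genes the adjusted p of edgeR's quasi-likelihood test was 0.969.

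Libraries of the same genotype also differed. The median absolute log2 ratio of CPM between KI2 and KI3 was 0.27 over the 51 genes and 0.13 over all tested genes, and between WT1 and WT3 it was 0.31 and 0.15. The reads of these genes were low, and the counting error of such a ratio had a median of 0.28 and 0.27 for the protocadherins and of 0.10 for all tested genes. The ratio lay within 2 counting errors in 39 of 51 genes for KI2 and KI3, and in 40 of 51 for WT1 and WT3, against 72.3% and 67.6% of all tested genes. KI2 was above KI3 in 39 of 51 genes, including all 11 gamma A genes and all 3 gamma C-type genes, where 47.9% of all tested genes were higher in KI2. WT1 was above WT3 in 26 of 51.

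Some genes with enough reads stood beyond counting error. Pcdhga11 had 51 reads in WT1 and 109 in WT3, a log2 ratio of -1.11 with a counting error of 0.24, while KI2 and KI3 had 119 and 96. Pcdhgb8 differed the other way, with a log2 ratio of WT1 to WT3 of 1.28 and a counting error of 0.28. Pcdhgc3 had a ratio of 0.34 with a counting error of 0.07. Within WT alone, neighbouring gamma genes thus moved in opposite directions by as much as the groups differed. Among the beta genes, Pcdhb7 was above its WT levels in KI2 and below them in KI3, at a log2 ratio of 0.69 with a counting error of 0.19.

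**Figure D5:**
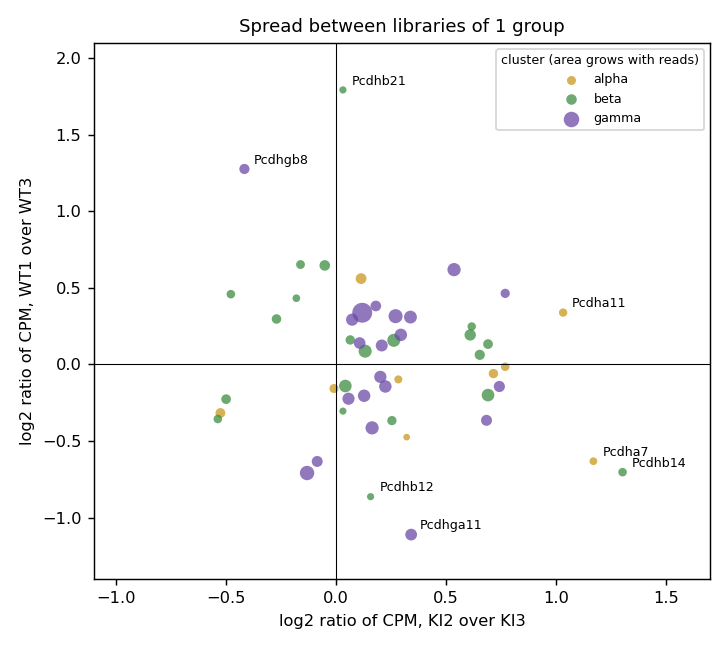
Log2 ratio of CPM of KI2 over KI3 (horizontal) and of WT1 over WT3 (vertical) for the 51 tested genes, coloured by cluster, with larger points for genes with more reads. Most points lie to the right of 0, as 39 of 51 genes were higher in KI2, and named genes are those beyond 0.8 on either axis.

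Genes that act on the locus were examined by a list of 24 regulators of its looping, methylation and silencing. All 24 were tested and 0 were called by edgeR or by DESeq2, with 0 at an unadjusted p under 0.05 in edgeR. Their log2 fold changes were above 0 in 6 and below 0 in 18, with a median of -0.07, from -0.23 to 0.04. Over all tested genes edgeR called 0.120%, while 4.60% had an unadjusted p under 0.05 and 51.2% were above 0. The 3 regulators with the most reads were Hnrnpk, which encodes an RNA- and DNA-binding protein, the H3K9 methyltransferase gene Ehmt2 and the maintenance DNA methyltransferase gene Dnmt1. Hnrnpk had 15609 and 16761 reads in cKI and 16096 and 16740 in WT. Ehmt2 had 7615 and 7890 against 7541 and 7206, and Dnmt1 had 5152 and 5613 against 5513 and 4835. Ctcf, whose product anchors promoter and enhancer loops at the locus, had a log2 fold change of -0.09 ± 0.07 (SE). The cohesin subunit gene Rad21 had -0.15 ± 0.07 (SE), and Smchd1, which represses clustered protocadherins, had -0.20 ± 0.09 (SE).

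The 12 protocadherins outside the clusters do not share the constant exons, and Pcdh1 and Pcdh12 among them lie on chromosome 18 as well, past the gamma cluster. All 12 were tested and 0 were called by edgeR or by DESeq2, where edgeR called 0.120% of all tested genes. Of the 12, 3 were above 0 and 9 below 0, with a median of -0.13, where 51.2% of all tested genes were above 0. An unadjusted p under 0.05 in edgeR was found in 4.60% of all tested genes and in 1 of the 12. Pcdh10, which recruits the WAVE actin regulator in axons, was that gene. It had 704 and 862 reads in cKI and 1043 and 894 in WT. Both cKI libraries lay below both WT libraries, with a log2 fold change of -0.34 ± 0.11 (SE) and an adjusted p of 0.969 (edgeR's quasi-likelihood test). Pcdh8 had 879 and 975 reads in cKI and 882 and 1014 in WT, and Pcdh1 had 742 and 812 against 654 and 722.

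The 23 genes for partners of protocadherins encode kinases, secretase subunits, WAVE complex parts and others. All 23 were tested and 0 were called by edgeR or by DESeq2, where edgeR called 0.120% of all tested genes. An unadjusted p under 0.05 was found in 1 with edgeR, against 4.60% of all tested genes, and in 0 with DESeq2. The log2 fold changes of 9 were above 0 and those of 14 below 0, with a median of -0.06. Of all tested genes 51.2% were above 0. Nlgn1, which encodes the postsynaptic adhesion protein neuroligin-1, had 313 and 302 reads in cKI and 417 and 356 in WT. Its log2 fold change was -0.36 ± 0.13 (SE), with an unadjusted p of 0.0188 and an adjusted p of 0.969 (edgeR's quasi-likelihood test). The 3 with the most reads, Marcks, Rac1 and Fyn, had log2 fold changes of -0.11, 0.00 and 0.00. Marcks encodes a membrane-bound actin regulator, Rac1 a small GTPase that drives WAVE, and Fyn a Src family kinase.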

How the data were processed

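Raw read counts per gene, as the authors deposited them, were used for 2 cKI and 2 WT libraries sequenced on an Illumina platform. The submitters' processing notes name TopHat2 2.0.12, Bowtie2 2.2.3, HTSeq 0.6.0 and the build mm9, while the positions in the table were those of GRCm38 for all 56 genes. The strand setting of the counting is not given in the sources used here. The deposited table also holds the authors' own comparison, namely a signal column of mean normalized counts, a linear fold change (ratio), its log2 value, and p-values, none of which was used. Column names gave the genotype of a library but not which labelled sample it was. The labels describe triplicates, and 2 libraries a group were analysed here.

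CPM was the count divided by the library total, and SE was obtained as the absolute log2 fold change over the root of F. The default filter of edgeR 4.0.16, run in R 4.3.3, left 15786 of 26433 genes, which were normalized by TMM and tested by quasi-likelihood with p-values adjusted after Benjamini and Hochberg and called under 0.05. The script was tested on simulated data. Alternatives were DESeq2 1.42.0, the likelihood ratio test, other normalizations and filters, leaving out the sex chromosomes, and leaving out a library at a time. Own exon bases that ignore genes on the other strand, counts of genes above 0 with a library left out, and the gamma B sum without Pcdhgb6 were added after seeing the data. Exon lengths came from GENCODE M21. Values in each library are given for C-type genes, the 3 genes of each cluster with the highest level per kb, those at an unadjusted p under 0.05, and the 2 largest changes each way. For the lists of regulators, unclustered protocadherins and partners, they are given for genes at an unadjusted p under 0.05 and for the 3 with the most reads. Pcdha1, Pcdha4, Pcdha8, Pcdhb1, Pcdhga11, BC037039, Taf7, Gm10544, Ctcf, Rad21 and Smchd1 were given values outside these rules, with their values in view. The rules also do not cover the marker genes Tbr1, Emx1, Xist, Kdm5d, Dlx2, Nkx2-1 and Ttr, for which values are given. The genes and lists were chosen with earlier results of these data known. The summed level of the cortex markers is not reported here.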

Additional observations from a re-analysis of the deposited data

How the results depend on the processing

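No paired analysis was possible because no replicate number of the labels occurs in both groups. The number of clustered protocadherins called was 0 under DESeq2, the likelihood ratio test, other normalizations, other filters and without chromosomes X and Y, and ranged from 0 to 1 with a library left out, the 1 being Pcdhgb6 without WT3. Over all genes, 19 were called, 54 with the likelihood ratio test, 24 with DESeq2, 6 when each library had to hold at least 10 counts, 11 when the sex chromosomes were removed, and 46 to 71 with a library left out. The median log2 fold change of the tested protocadherins ranged from -0.071 without KI2 to 0.24 with a library left out. The log2 ratio of summed CPM ranged from -0.023 without KI2 to 0.30 for alpha, from 0.09 to 0.30 for beta and from -0.08 to 0.10 for gamma. The median level per kb was 0.214 for alpha and 1.26 for gamma with all exon bases as length, 2.25 for gamma with own exon bases on the same strand, and 2.26 to 2.57 for gamma with a library left out.

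With a library left out, the log2 fold change of 7 of the 17 named genes that were tested turned sign, ranging from -0.036 without KI2 to 0.692 for Pcdha3, from -0.508 to 0.000423 without KI2 for Pcdha12, and from -0.136 without WT3 to 0.421 for Pcdhac2. It ranged from -0.454 to 0.251 for Pcdhb7, above 0 without KI3 (0.251) or WT3 (0.052), from -0.338 to 0.018 for Pcdhga4, above 0 without KI3 (0.015) or WT1 (0.018), from -0.258 to 0.077 without WT1 for Pcdhgc3, and from -0.224 to 0.098 for Pcdhgc4, above 0 without KI3 (0.062) or WT1 (0.098). None of these genes was called in any fit. The other alternatives changed no direction or call of a named gene. The cause of these changes was not tested beyond the library left out. Of the 56 genes, 14 had at least 100 counts in every library, among them Pcdhgc3, Pcdhgc4 and Pcdhga4, which turned sign. The part of depth in the sign changes was not tested.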

Other observations

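Between the first and the last clustered protocadherin the table lists 16 other genes, of which 5 passed the filter on low counts. By edgeR or by DESeq2 0 were called, and 0 had an unadjusted p under 0.05 in edgeR, against 4.60% of all tested genes. The log2 fold changes of the 5 ran from -0.47 to 0.49, with 3 above 0 and 2 below 0. Taf7, the gene of a subunit of the general transcription factor TFIID, lies between the beta and gamma clusters. It had 386 and 397 reads in cKI and 354 and 379 in WT, and a log2 fold change of 0.07 ± 0.11 (SE). Gm10544 runs antisense within the alpha cluster and had 53 and 73 reads in cKI and 86 and 85 in WT. Both cKI libraries lay below both WT libraries, with a log2 fold change of -0.47 ± 0.23 (SE) and an unadjusted p of 0.0712 in edgeR's quasi-likelihood test.

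The share of C-type reads within the alpha cluster was 23.6% and 25.0% in KI2 and KI3 and 30.7% and 20.7% in WT1 and WT3. Within the gamma cluster it was 33.0% and 33.7% in KI2 and KI3 and 39.2% and 33.2% in WT1 and WT3. In both clusters WT1 had the highest share, and the other 3 libraries lay within the 95% Wilson intervals of each other in the gamma cluster. In the alpha cluster the interval of WT1, 25.7% to 36.3%, met those of the other 3 libraries. These were 19.4% to 28.3% in KI2, 20.3% to 30.3% in KI3 and 16.4% to 25.9% in WT3.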
